A study of Mus musculus with 12 samples.

Results

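The 6 RNA-seq libraries described here are those of bone marrow-derived dendritic cells (BMDCs) stimulated with LPS, 3 from wild-type cells (WTL) and 3 from CTCF-deficient cells (KOL), out of 12 libraries in the series. They were chosen by their labels alone. The other 6 libraries are the unstimulated cells of both genotypes (WT and KO, 3 each) and are given beside them where the effect of LPS bears on a value. BMDCs are a culture model of dendritic cells made from mouse marrow with the growth factor GM-CSF.

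The mice were on the C57BL/6 background, of both sexes and aged 8 to 12 weeks, and carried CreER, a Cre recombinase expressed from the ubiquitous Rosa26 locus that becomes active with 4-hydroxytamoxifen (4-OHT). WTL cells had the genotype CreER with unmodified Ctcf, and KOL cells the genotype CreER;CTCF fl/fl, whose Ctcf alleles are flanked by loxP sites. The 4-OHT was added on the first day of a 6-day culture, so deletion began in precursors. The sources do not make clear whether WT cultures also received it, so an effect of the agent cannot be told apart from that of the genotype. CD11c+ cells were collected, and stimulation with LPS (100 ng/ml) lasted 3 h.

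CTCF is a zinc-finger protein that binds DNA and, together with the ring-shaped cohesin complex, anchors chromatin loops and marks the borders of topologically associating domains. LPS, a component of the outer membrane of Gram-negative bacteria, is sensed by TLR4 with CD14. The adaptor MyD88 leads from there to NF-κB and the early inflammatory cytokines, and the adaptor TRIF leads to interferon beta, which acts back on the cell through its receptor and induces antiviral genes. Dendritic cells at the same time remodel metabolism, raise costimulatory molecules and change their chemokine receptors.

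Ctcf itself was lower in each KOL library but was not absent. Its normalized counts (expected counts, the read numbers estimated per gene, scaled to a common library size) were 886, 817 and 745 in WTL and 563, 530 and 526 in KOL. The groups did not overlap, and the log2 fold change of KOL against WTL was -0.56 (SE 0.10, adjusted p = 0.00219). This 1.48-fold difference was under the 1.5-fold cutoff used below. The study reports efficient depletion of both Ctcf mRNA and CTCF protein in its own assays. In unstimulated cells the mean was 1004 ± 41.1 (SD, n = 3) in WT and 549 ± 29 in KO. Counts were taken over whole genes, so any reads from Ctcf exons outside the deleted part would be included. Their share of the counts left in KOL was not tested.

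The LPS libraries held 12769773 to 16586334 expected counts each. Replicates of the LPS groups varied more than those of the unstimulated groups, with a biological coefficient of variation of 13.7% in WTL and 14.4% in KOL against 4.92% in WT and 2.62% in KO. WTL replicate 1 and KOL replicate 2 stood apart from the other 4 LPS libraries on the second principal component (14.9% of the variance, against 67.5% for the first, which separated the genotypes). In both, genes with longer transcripts lay above their group mean (Spearman's rho across 13052 genes 0.29 and 0.343, against -0.129 to -0.301 in the other 4). With GC content rho was -0.515 in WTL replicate 1 and -0.199 in KOL replicate 2. It was -0.075 in KOL replicate 3 and 0.361 to 0.394 in the remaining libraries. WTL replicate 2 held 6.981% ribosomal RNA, and no other LPS library more than 1.628%.

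Summed TPM (transcript abundance scaled for length and depth) of the 9 dendritic cell markers was 12212 to 16727 in WTL and 11984 to 17192 in KOL. Cd74 was the largest part (4980 to 7190 and 6095 to 9531 TPM). Among these markers 1 was lower, 1 was higher and 3 were kept (median log2 fold change -0.13). In TPM, H2-Aa and Itgam were lower and Zbtb46 and Dpp4 higher in each KOL library. The 9 monocyte and macrophage markers summed to 14085 to 18820 and 18258 to 25813, most of it from Lyz2 alone (13433 to 18028 TPM in WTL and 17608 to 25035 in KOL). Of these 9 genes 3 were lower, 1 was higher and 4 were kept (median log2 fold change -0.10). The 12 markers of neutrophils and their precursors summed to 354 to 448 and 294 to 343. The 6 NK cell markers summed to 25 to 33.4 TPM in WTL and 6.63 to 8.97 in KOL, nearly all of it from Klrk1 (24.4 to 32.5 and 6.01 to 7.65), with Prf1 at 0 in all LPS libraries. The 6 markers of plasmacytoid dendritic cells summed to 31.1 to 39.1 and 20.9 to 26.8. Markers of T cells, B cells, mast cells, erythroid cells and stromal cells each summed to at most 8.74 TPM in any LPS library, and those of eosinophils to at most 31.1. The part of these differences in the results was not tested.

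Of 13060 genes tested, 1441 were lower in KOL (11.0%) and 1618 were higher (12.4%). A gene was called lower or higher when the quasi-likelihood test of edgeR gave an adjusted p below 0.05 and its estimated change exceeded 1.5-fold. With no fold cutoff, 4475 genes (34.3%) had an adjusted p below 0.05. A gene was called kept when the whole 95% confidence interval of its change lay within 1.5-fold in either direction, which held for 5098 genes (39.0%). That interval was not adjusted for the number of genes, and a kept gene can also have an adjusted p below 0.05. The remaining 4903 were undecided, and the median log2 fold change of all genes was -0.00. The groups did not overlap at 6248 genes (47.8%), and changes above 4-fold were found at 147 lower and 316 higher genes. A lack of overlap was also a condition for naming the largest falls and rises of each list and overall. At those genes it is no further evidence of a change. Without the 2 libraries that stood apart, 1327 of the lower and 1487 of the higher genes were called again in the same direction, and the 3059 called genes kept their sign. The series calls the replicates biological, but no source ties them to separate animals, so the p-values measure the spread between these libraries.

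Across 648 genes placed in 31 lists by function, 169 were lower, 68 were higher and 234 were kept. Over all genes tested, 11.0% were lower, 12.4% higher and 39.0% kept, and every list count below stands beside these shares. The lists and their members were chosen with earlier results of these data known, so list shares describe only the chosen genes. Mitosis and G2/M (26 of 30 lower), cholesterol synthesis (18 of 25) and the list of itaconate, nitric oxide, arginine and prostaglandin genes (14 of 21) held the highest shares of lower genes among the 31 lists. Enzymes of the citric acid cycle (15 of 20 kept) held the highest share of kept genes. Chemokines, migration genes, lysosomal genes and retinoic acid genes were among the lists with more higher than lower members. Without the 2 libraries that stood apart, the number of lower genes in each of the 31 lists differed by at most 1. The number of higher genes did so too, except in the unfolded protein and ATF4 response (4 with and 2 without them) and the myeloid factors (5 and 3).

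**Figure D1:**
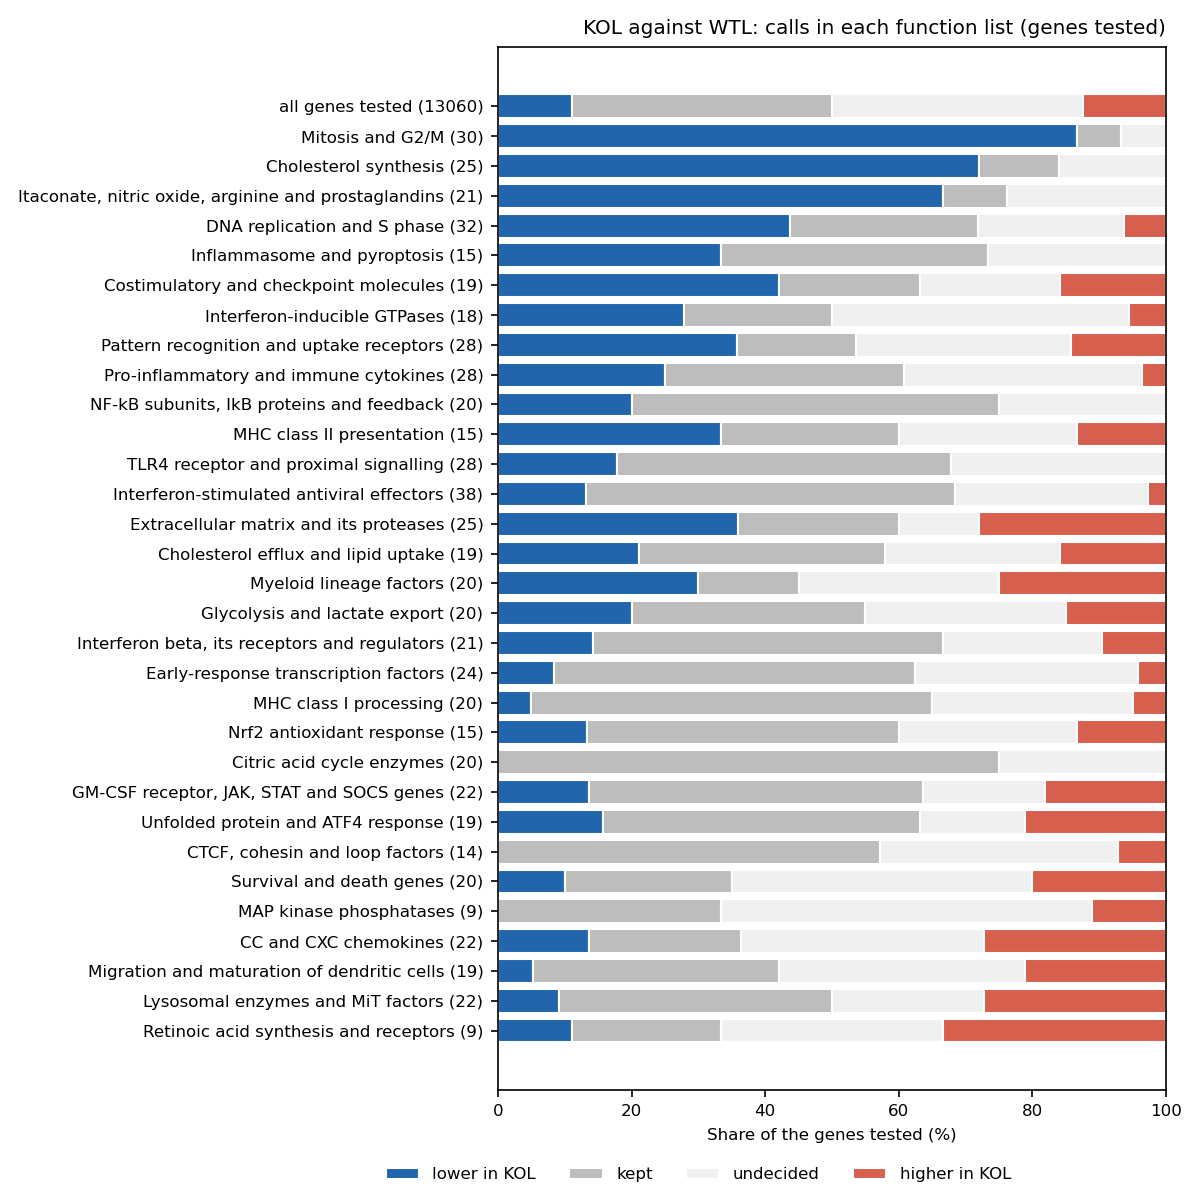
Calls in KOL against WTL by function. Each bar is a list with the number of its genes tested, the horizontal axis is the share of those genes in percent, and colours mark genes lower, kept, undecided and higher. Mitosis, cholesterol synthesis and the itaconate, nitric oxide, arginine and prostaglandin list stand above the 11.0% of all genes that were lower. The lists were chosen with earlier results of these data known.

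Inflammatory cytokines were lower in part. Of 28 tested, 7 were lower (Il6, Il12a, Il12b, Tnf, Il10, Il18 and Il1f6), 1 was higher (Csf1) and 10 were kept, with a median log2 fold change of -0.12 against -0.00 for all genes. In bulk RNA, fewer cells that make a transcript and less of it per cell cannot be told apart.

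Il6, an acute-phase cytokine that also steers T cells, was counted at 21202, 16185 and 15792 in WTL and at 8106, 8338 and 10628 in KOL. Every KOL library lay below every WTL library, and the change was -0.94 on the log2 scale (SE 0.15, adjusted p = 0.00127). Il12b encodes the subunit shared by IL-12 and IL-23. Its counts were 10495, 8897 and 9294 in WTL against 3949, 5438 and 4251 in KOL. The groups were apart (-1.04, SE 0.13, adjusted p = 3.3e-04). Il12a, which completes IL-12, fell by 1.07 (adjusted p = 2.2e-04) on the log2 scale. Il23a, which completes IL-23, was kept, at 548, 536 and 629 in WTL and 585, 429 and 552 in KOL, which overlap.

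Tnf, a first-wave cytokine of endotoxin responses, was counted at 28482, 25434 and 25282 in WTL and at 11244, 13960 and 11802 in KOL. All KOL values were below all WTL values (-1.07, SE 0.11, adjusted p = 1.1e-04). The anti-inflammatory cytokine Il10 fell by 1.19 (adjusted p = 2.0e-04), the inflammasome substrate Il18 by 1.41 (adjusted p = 2.0e-04) and Il1f6, which encodes IL-36 alpha, by 1.05 (adjusted p = 0.00194). Il18 overlaps Bco2, with which reads may be shared.

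Il1b and Il1rn, both of the interleukin-1 family, were kept. Il1b was counted at 50147, 41274 and 39482 in WTL and at 33401, 41067 and 41165 in KOL, which overlap (log2 fold change -0.15, 95% interval -0.45 to 0.15). Il1rn, the antagonist of the same receptor, was at 0.26 (interval -0.02 to 0.54). Csf1, a growth factor of macrophages, rose from 2317, 2351 and 2255 to 4595, 4969 and 4370, with no overlap (1.04, SE 0.09, adjusted p = 3.6e-05).

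**Figure D2:**
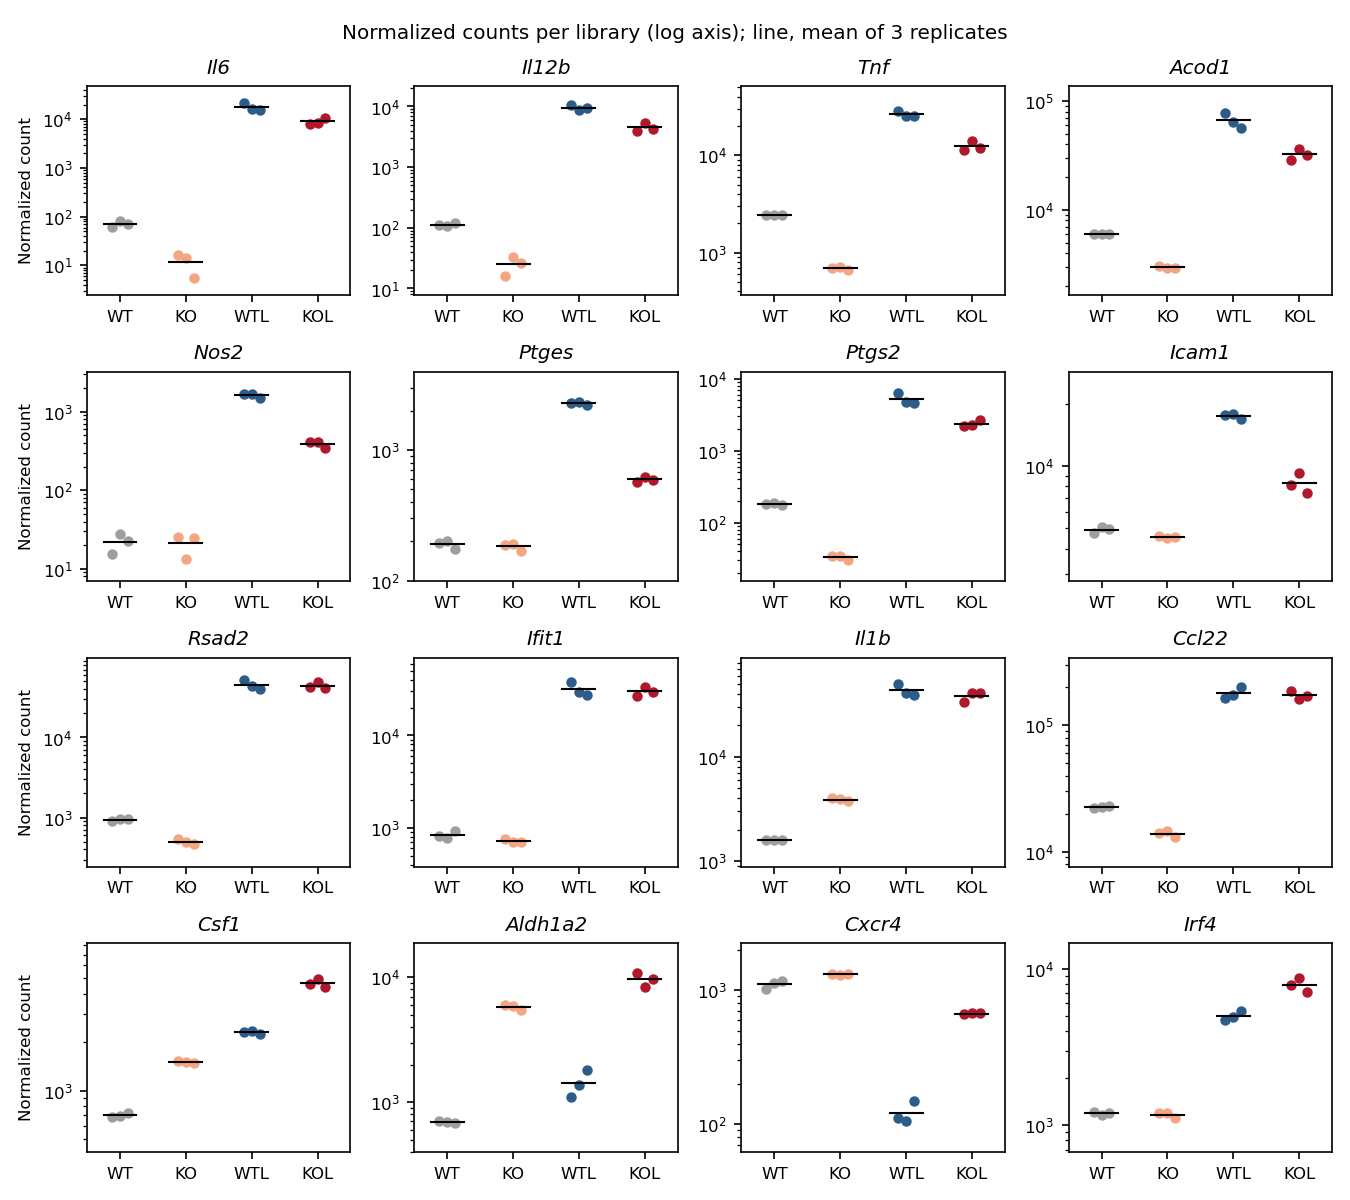
Normalized counts of 16 genes in each library, on a log axis, by group (WT and KO without LPS, WTL and KOL with LPS). Points are libraries and lines are means of 3 replicates. KOL lies below WTL for Il6, Tnf, Nos2 and Ptges, overlaps WTL for Rsad2, Ifit1, Il1b and Ccl22, and lies above it for Csf1, Aldh1a2, Cxcr4 and Irf4.

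Chemokines split by gene. Among 22 tested, 3 were lower (Cxcl3, Cxcl9 and Cxcl10), 6 were higher (Cxcl1, Cxcl5, Cxcl14, Cx3cl1, Ccl9 and Ccl24) and 5 were kept, and the median log2 fold change was 0.27. The split ran through the CXC genes of chromosome 5. CXCL1, CXCL2, CXCL3 and CXCL5 attract neutrophils, and CXCL9 and CXCL10 are interferon-induced ligands of CXCR3 on T cells.

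Cxcl3 (chr5:90786103-90789600, plus strand) was counted at 34805, 28534 and 27584 in WTL and at 5590, 4300 and 6699 in KOL. The groups lay far apart (-2.42, SE 0.17, adjusted p = 1.1e-05). Cxcl1 (chr5:90891241-90893115, plus strand) went the other way, from 7048, 5084 and 5418 to 8849, 8072 and 10706. Each KOL library was above each WTL library (0.69, SE 0.15, adjusted p = 0.00696), and without KOL replicate 3 the change was 0.57, under the fold cutoff. Cxcl2, the next gene, held 26793, 23520 and 25331 in WTL and 17106, 15957 and 19364 in KOL. It was lower in all 3 KOL libraries but under the 1.5-fold cutoff (-0.50, adjusted p = 0.00713). Cxcl5 rose from 62, 53.1 and 50 to 143, 105 and 177 (1.40, adjusted p = 0.00102).

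The promoters of Cxcl3 and Cxcl1 are shown because these genes moved in opposite directions, and those of Il6, Cxcl10 and Ifit1 because they stand for the lower cytokines, the lower CXCR3 ligands and the kept antiviral genes. Each runs from 250 bases before to 50 bases after the start of transcription, taken from RefSeq on GRCm38.p6, 5′ to 3′ along the gene's strand. The windows are chr5:90785851-90786150 (plus strand) for Cxcl3, chr5:90890995-90891294 (plus) for Cxcl1, chr5:30012864-30013163 (plus) for Il6, chr5:92348840-92349139 (minus) for Cxcl10 and chr19:34640639-34640938 (plus) for Ifit1. Capitals mark κB-type matches (GGGA, any 2 bases, TTCC) in all but Ifit1, ISRE-type matches (GAAA, any 2 bases, GAAA, an element of interferon-stimulated genes) in Cxcl10 and Ifit1, and an AP-1-type match (TGANTCA) in Il6, on either strand.
Cxcl3: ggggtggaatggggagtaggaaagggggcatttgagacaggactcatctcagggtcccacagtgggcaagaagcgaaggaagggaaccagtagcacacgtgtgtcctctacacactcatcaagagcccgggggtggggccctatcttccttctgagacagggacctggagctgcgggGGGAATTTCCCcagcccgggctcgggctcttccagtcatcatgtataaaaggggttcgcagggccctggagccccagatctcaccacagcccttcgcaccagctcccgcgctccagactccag
Cxcl1: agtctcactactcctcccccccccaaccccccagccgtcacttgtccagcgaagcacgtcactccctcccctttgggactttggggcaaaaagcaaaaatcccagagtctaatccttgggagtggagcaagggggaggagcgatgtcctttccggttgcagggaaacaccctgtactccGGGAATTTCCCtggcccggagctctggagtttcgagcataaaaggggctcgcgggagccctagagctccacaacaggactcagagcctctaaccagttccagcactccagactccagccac
Il6: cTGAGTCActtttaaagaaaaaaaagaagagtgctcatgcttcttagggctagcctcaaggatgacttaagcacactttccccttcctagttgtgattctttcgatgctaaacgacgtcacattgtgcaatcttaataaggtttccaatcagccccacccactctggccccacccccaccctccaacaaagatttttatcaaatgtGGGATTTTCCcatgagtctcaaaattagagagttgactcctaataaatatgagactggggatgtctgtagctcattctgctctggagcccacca
Cxcl10: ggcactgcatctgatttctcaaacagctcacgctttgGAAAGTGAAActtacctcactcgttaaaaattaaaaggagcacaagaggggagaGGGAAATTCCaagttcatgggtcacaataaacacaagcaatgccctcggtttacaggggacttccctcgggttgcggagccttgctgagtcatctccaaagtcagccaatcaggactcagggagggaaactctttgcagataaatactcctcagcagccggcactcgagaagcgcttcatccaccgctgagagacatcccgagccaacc
Ifit1: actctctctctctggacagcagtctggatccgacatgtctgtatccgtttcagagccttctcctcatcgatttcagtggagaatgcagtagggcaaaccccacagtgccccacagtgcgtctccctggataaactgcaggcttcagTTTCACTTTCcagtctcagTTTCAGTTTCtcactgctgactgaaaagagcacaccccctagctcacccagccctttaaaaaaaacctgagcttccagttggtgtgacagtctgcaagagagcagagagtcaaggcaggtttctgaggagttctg

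Cxcl3 and Cxcl1 carried κB-type letters at nearly the same place, as overlapping matches on both strands whose first bases lie 73 and 72 bases before the start in Cxcl3 and 71 and 70 in Cxcl1. Il6 had a κB-type match 44 bases and an AP-1-type match 249 bases before the start. Cxcl10 had an ISRE-type match at 213, a κB-type match at 159 and an AP-1-type match at 74, the last not in capitals, and Ifit1 had ISRE-type matches at 104 and 85. Of all 32851 promoters in the table, 1.47% held the κB-type letters, 3.44% the ISRE-type letters and 7.81% the AP-1-type letters. The other shares are by gene, counted when any promoter of the gene held the letters. Among the 9658 tested genes with a promoter there, 1.87% held the κB-type and 4.2% the ISRE-type letters. The κB-type share was 1.66% of lower, 2.66% of higher and 1.76% of kept genes, and the ISRE-type share was 5.82%, 3.49% and 3.77%. The letters CCA, AG and GGC with any 2 bases between each come from the core of the CTCF motif. They were in promoters of 4.44% of lower, 3.08% of higher and 3.41% of kept genes, beside 3.3% of the tested genes. Counted by promoter, 2.43% of all promoters held them. These are matches of letters and do not show binding.

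Farther along chromosome 5, Cxcl10 fell from 42638, 41953 and 39613 to 19434, 20439 and 20417 (-1.01, SE 0.09, adjusted p = 5.1e-05). Cxcl9 fell from 1009, 869 and 962 to 192, 287 and 215 (-2.00, SE 0.14, adjusted p = 1.2e-05). In neither gene did the groups overlap, and Cxcl11, another CXCR3 ligand, was at -0.54 (adjusted p = 0.00521), under the fold cutoff.

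**Figure D3:**
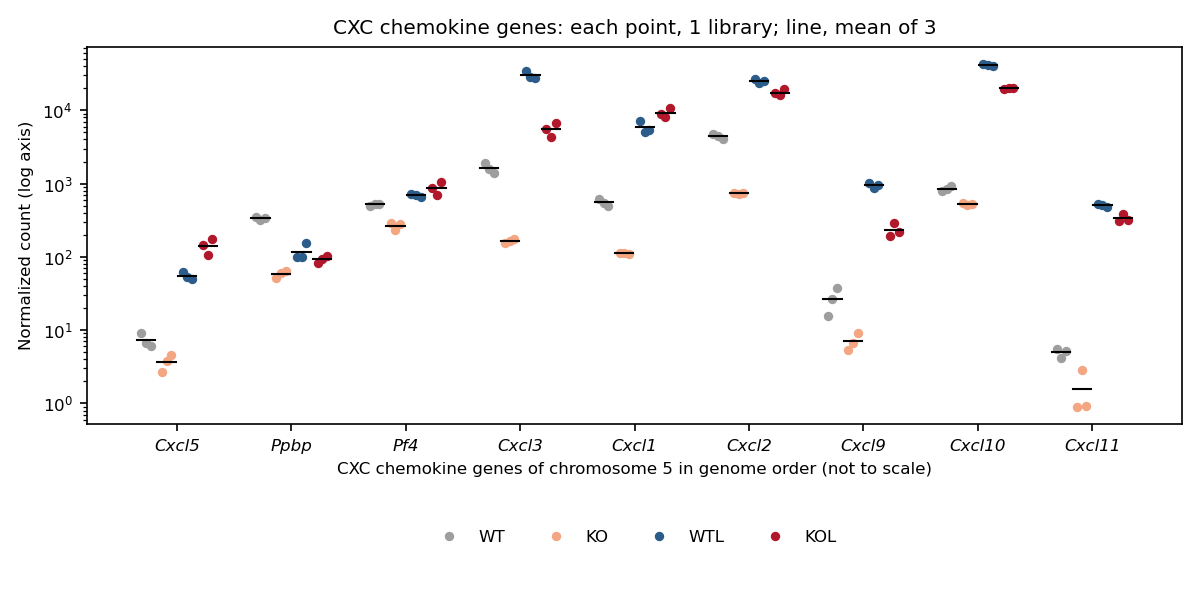
Normalized counts (log axis) of the CXC chemokine genes of chromosome 5 in genome order. Points are libraries by group, and lines are means of 3. With LPS, KOL lies above WTL for Cxcl5 and Cxcl1 and below it for Cxcl3, Cxcl9 and Cxcl10.

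Outside the cluster, Ccl22, which attracts regulatory T cells and Th2 cells through CCR4, was kept, at 164164, 175060 and 200200 in WTL and 186432, 162894 and 170446 in KOL. Ccl5, a chemoattractant of T cells, was kept as well, at 0.28 (95% interval 0.05 to 0.52). Cx3cl1, the membrane-bound chemokine fractalkine, rose from 1016, 1233 and 1220 to 3108, 3029 and 2691 (1.38, SE 0.11, adjusted p = 2.2e-05). Cxcl14 rose from 13.5, 15.2 and 17 to 562, 557 and 636, and Ccl24, an eosinophil attractant, from 25.6, 31.4 and 26.6 to 243, 180 and 166. In both, all KOL libraries were far above all WTL libraries.

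The receptor and its signalling chain were kept at 14 of 28 genes and lower at 5 (median log2 fold change -0.32). The coreceptor Cd14 was kept, at 10220, 9894 and 9953 in WTL and 9866, 11270 and 11168 in KOL. Tlr4 was kept too and overlapped (432, 303 and 271 against 249, 390 and 272). Myd88, the main adaptor, was counted at 5022, 5382 and 5240 in WTL and at 2977, 3189 and 2987 in KOL. It was lower in every KOL library (-0.74, SE 0.09, adjusted p = 2.2e-04). Irak2, a kinase of the same complex, fell by 0.76 (adjusted p = 2.9e-04), and Irak3, a brake on it, by 0.78 (adjusted p = 0.00163). Tirap, the sorting adaptor of MyD88, fell by 0.96 (adjusted p = 0.00675), and Tab1, a partner of the kinase TAK1, by 1.43 (adjusted p = 0.0016). On TPM with limma Tirap was not called (-0.93 on log2(TPM + 0.1) and -0.77 on log2(TPM + 1)). The ubiquitin ligase Trim25 was below WTL in each KOL library (-0.53, adjusted p = 0.0017) but under the fold cutoff, and Malt1, a protease of NF-κB signalling, was undecided at -0.34 (adjusted p = 0.2). Myd88, Irak3 and Tirap overlap Acaa1a, Tmbim4 and Srpr on the other strand, so their reads may be shared unless strand was used in counting, which is not given in the sources used here.

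NF-κB genes were kept at 11 of 20 and lower at 4 (median log2 fold change -0.24). Nfkb1 (-0.16, 95% interval -0.36 to 0.05) and Nfkbia, the inhibitor IκB alpha (-0.25, interval -0.57 to 0.06), were kept. Nfkbiz encodes IκB zeta, a nuclear cofactor for secondary NF-κB targets. It was counted at 8347, 8034 and 8381 in WTL and at 3620, 3409 and 3439 in KOL, with no overlap (-1.21, SE 0.09, adjusted p = 1.1e-05). The feedback gene Tnip1 fell by 0.71 (adjusted p = 3.8e-04) and Zc3h12a, an RNase that degrades Il6 mRNA, by 0.73 (adjusted p = 0.00126).

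Early-response transcription factors were kept at 13 of 24 (54.2%), with 2 lower (8.33%) and 1 higher (4.17%). Over all genes these shares were 39.0%, 11.0% and 12.4%. Egr1, a zinc-finger factor induced by ERK signalling, was at 1931, 2516 and 2722 in WTL and at 918, 550 and 759 in KOL, with no overlap (-1.65, SE 0.19, adjusted p = 2.0e-04). Klf6 and the orphan nuclear receptor Nr4a3 were kept, at 0.06 and -0.26. Of the MAP kinase phosphatases, 1 of 9 was higher and 3 were kept.

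Genes for interferon beta and the antiviral effectors were called in both directions, beside 23.4% of all genes tested lower or higher and 39.0% kept. Among 21 genes for interferon beta, its receptors and regulators, 3 were lower, 2 were higher and 11 were kept (median log2 fold change -0.30). Among 38 antiviral effectors, 5 were lower, 1 was higher and 21 were kept (median -0.17). Ifnb1 was counted at 136, 148 and 162 in WTL and at 117, 91.3 and 145 in KOL. The groups overlap and the change was undecided (-0.30, 95% interval -0.72 to 0.11).

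Rsad2, the antiviral enzyme viperin, was at 52375, 44488 and 40186 in WTL and at 42469, 48789 and 42023 in KOL. The groups overlap, with a log2 fold change of -0.01 (95% interval -0.29 to 0.27). Ifit1, which binds foreign RNA, also overlapped, at 38173, 29947 and 27410 against 26658, 33510 and 29791 (-0.06, interval -0.38 to 0.27). Isg15, a ubiquitin-like modifier, was kept at 0.30 (interval 0.06 to 0.55), and Mx1, an antiviral GTPase, at -0.24 (interval -0.48 to 0.00). Irf7, Irf9, Stat2 and Usp18 were kept too.

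The lower effectors were Slfn1, Oas2, Isg20, Oas3 and Oas1g, the last at -0.58, under the fold cutoff, without WTL replicate 2. Slfn1, a schlafen protein, went from 2522, 2173 and 2097 to 900, 842 and 911 (-1.32, SE 0.11, adjusted p = 2.0e-05). Oas2, which makes the second messenger for RNase L, went from 1154, 1131 and 1025 to 442, 488 and 466 (-1.22, SE 0.10, adjusted p = 1.8e-05). Schlafen, Oas and Ifit genes have close relatives, among which the authors' counting could split reads.

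Of the regulators, Irf1 fell from 6765, 7647 and 7653 to 4105, 3634 and 3915 (-0.89, SE 0.10, adjusted p = 1.4e-04). Irf8, a factor of dendritic cell identity, fell from 3606, 4584 and 5032 to 2331, 1898 and 1981 (-1.06, SE 0.14, adjusted p = 4.0e-04). Irf4, its relative, rose from 4681, 4889 and 5397 to 7827, 8740 and 7115 (0.69, SE 0.11, adjusted p = 0.00101). In none of the 3 did the groups overlap, and without both libraries that stood apart Irf4 was at 0.57, under the fold cutoff.

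Interferon-inducible GTPases, which attack the vacuoles of intracellular pathogens, were lower at 5 of 18, with 1 higher (median log2 fold change -0.41). Gbp5 fell from 22808, 19340 and 18511 to 10328, 11519 and 9649, with no overlap (-0.91, SE 0.12, adjusted p = 3.4e-04). Irgm2 fell by 0.71 (adjusted p = 5.8e-04) and overlaps Igtp on the same strand, and Irgm1 was kept at -0.34 (interval -0.58 to -0.10).

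**Figure D4:**
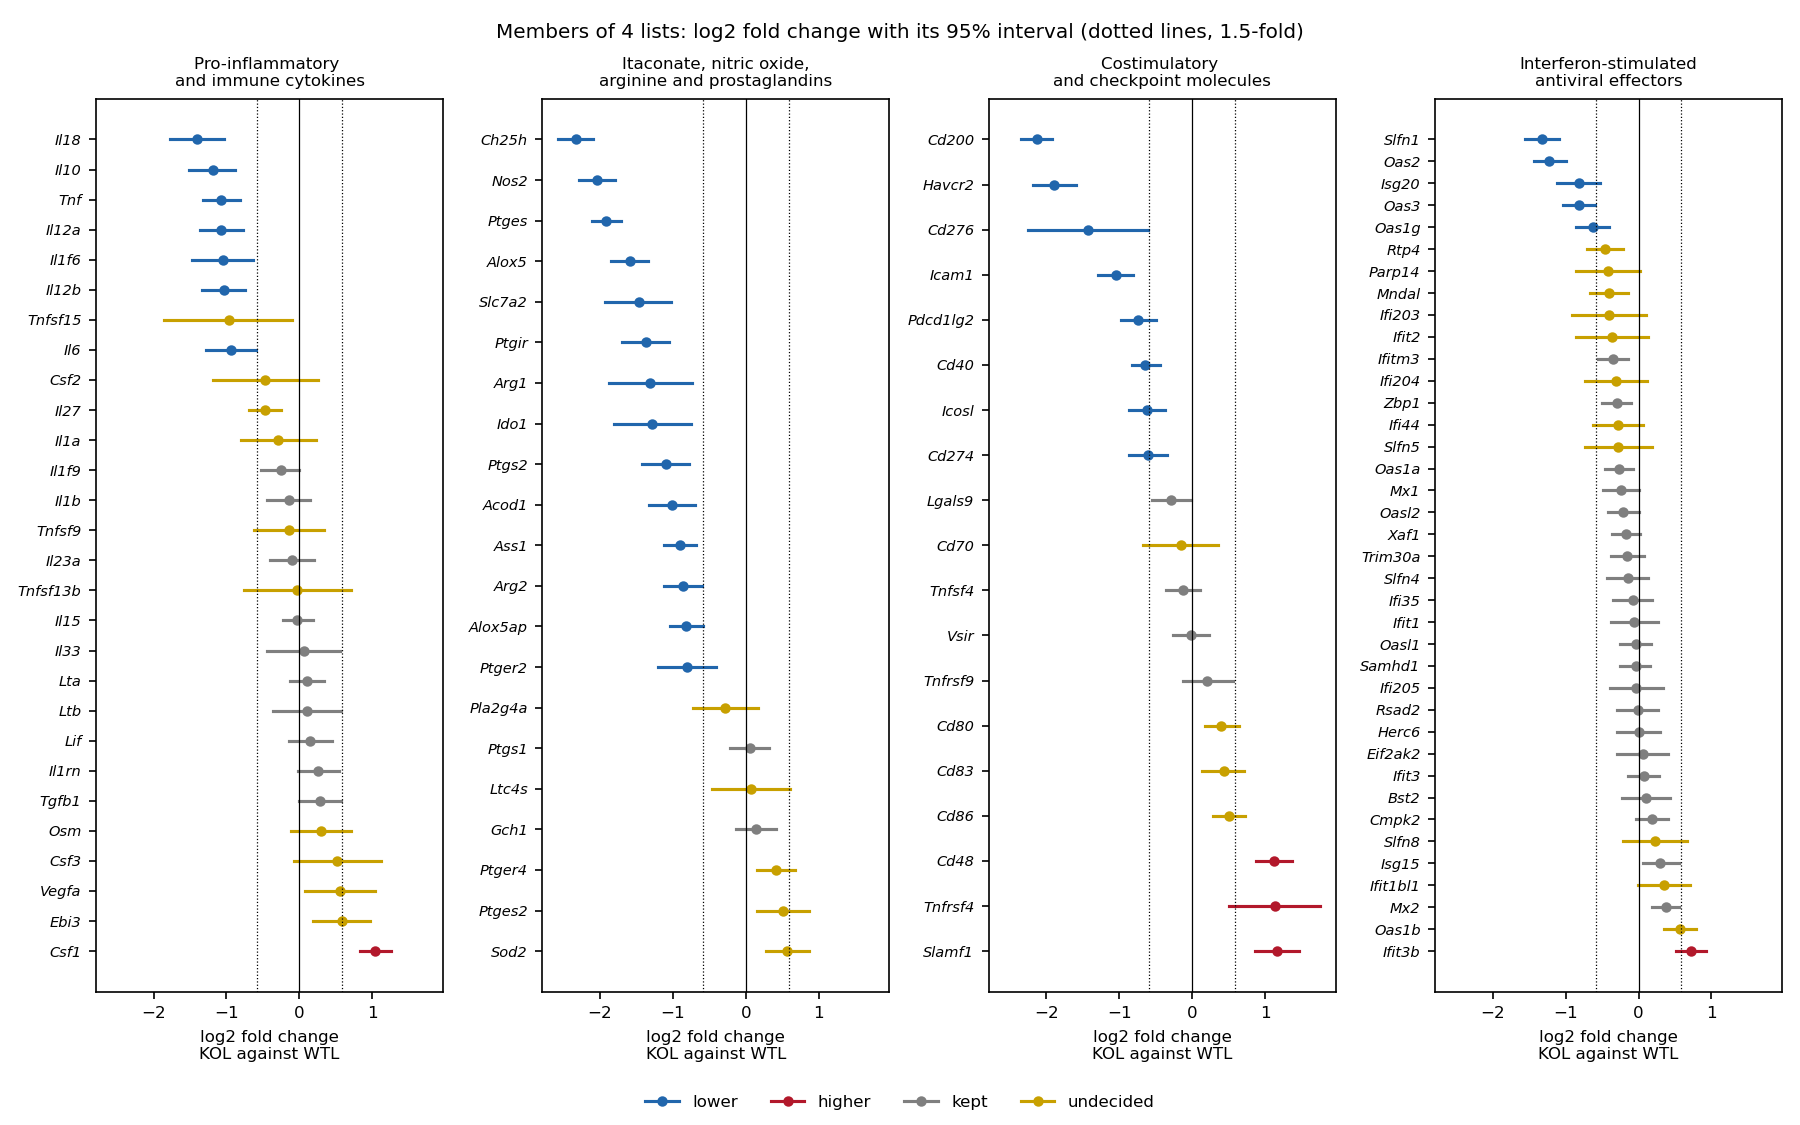
Log2 fold changes of KOL against WTL with 95% confidence intervals for the members of 4 lists. Points are genes, colours mark the call, and dotted lines mark 1.5-fold in either direction. The itaconate, nitric oxide, arginine and prostaglandin genes reach down to -2.33 (Ch25h), and 21 of the 38 antiviral effectors were kept.

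GM-CSF receptor, JAK, STAT and SOCS genes were called in both directions, with 3 of 22 lower (13.6%), 4 higher (18.2%) and 11 kept (50%). Of all genes, 11.0% were lower, 12.4% higher and 39.0% kept. Csf2ra, the alpha chain of the GM-CSF receptor, went from 2846, 3046 and 2922 to 1968, 1990 and 1695 (-0.61, adjusted p = 0.0013), and was at -0.54, under the cutoff, without KOL replicate 3. Csf2rb, Jak2 and Stat5a, its beta chain, kinase and transcription factor, were kept at -0.27, 0.04 and -0.06. Socs3, a brake on IL-6 signalling, fell from 6385, 6957 and 6726 to 3920, 3929 and 4019 (-0.73, SE 0.09, adjusted p = 2.4e-04), and Socs2 rose by 0.73 (adjusted p = 0.00119).

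Inflammasome genes were lower at 5 of 15 and kept at 6 (median log2 fold change -0.45). Mefv, the sensor pyrin, went from 1320, 1096 and 1043 to 494, 532 and 479 (-1.17, SE 0.11, adjusted p = 6.3e-05). Casp4, the caspase that senses cytosolic LPS, fell by 0.95 (adjusted p = 4.3e-04), and the sensor Nlrp3 by 0.61 (adjusted p = 0.00621). Nlrp3 came under the fold cutoff without KOL replicate 1 (-0.55), KOL replicate 3 (-0.55) or WTL replicate 1 (-0.51). Casp1, which matures IL-1 beta, was kept at -0.14.

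Costimulatory and checkpoint genes had 8 of 19 lower, 3 higher and 4 kept. Cd40, through which helper T cells license dendritic cells, was at 14982, 15480 and 15250 in WTL and at 9444, 9642 and 9707 in KOL, with no overlap (-0.64, SE 0.09, adjusted p = 5.1e-04). Icam1, the adhesion ligand of LFA-1, fell from 17697, 17735 and 16874 to 8087, 9259 and 7389 (-1.05, SE 0.11, adjusted p = 8.7e-05). Among the 8 lower genes were also Cd200 (-2.13, adjusted p = 1.3e-06), Havcr2, which encodes TIM-3 (-1.89, adjusted p = 9.2e-06), and the PD-1 ligands Pdcd1lg2 (-0.74, adjusted p = 5.4e-04) and Cd274 (-0.60, adjusted p = 0.00274). Cd274 came under the fold cutoff without KOL replicate 1 (-0.58), KOL replicate 3 (-0.53) or WTL replicate 1 (-0.56). The CD28 ligands Cd86 (0.50, adjusted p = 0.0034) and Cd80 (0.40, adjusted p = 0.0139) were above 0 but under the fold cutoff. Cd48, a ligand of 2B4, rose by 1.12 (adjusted p = 6.4e-05).

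MHC class II genes were lower at 5 of 15 and higher at 2. The chains H2-Eb1 (-0.23, 95% interval -0.50 to 0.05) and H2-Ab1 (-0.13, interval -0.58 to 0.32) were kept. H2-Oa and H2-Ob, which form an inhibitor of peptide loading, rose, H2-Ob from 306, 260 and 309 to 622, 631 and 635 (1.14, SE 0.10, adjusted p = 4.0e-05). March1, a ligase that removes class II from the surface, fell from 1011, 781 and 677 to 301, 420 and 352 (-1.17, SE 0.17, adjusted p = 6.7e-04). Class I processing was kept at 12 of 20 genes. Of that list, H2-T23 fell by 1.40 (adjusted p = 3.5e-05) and H2-D1 rose by 0.78 (adjusted p = 0.00218), and class I genes are close copies among which reads may have been split.

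Of the migration genes, 4 of 19 were higher and 1 was lower. Ccr7, which guides mature cells to lymph nodes, was kept, at 13770, 15524 and 18282 in WTL and 19187, 19345 and 17334 in KOL. Cxcr4, the receptor of CXCL12, was at 111, 105 and 149 in WTL and at 661, 672 and 676 in KOL, with no overlap (2.49, SE 0.14, adjusted p = 2.8e-06). Unstimulated cells held 1110 ± 71 (WT) and 1315 ± 4.91 (KO, both SD, n = 3). The inflammatory chemokine receptors Ccr2 (1.45, adjusted p = 2.0e-04) and Ccr1 (1.38, adjusted p = 1.7e-04) were higher as well.

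Pattern recognition and uptake receptors changed in both directions, 10 of 28 lower and 4 higher. Tlr1, the partner of TLR2 for bacterial lipopeptides, was at 649, 571 and 567 in WTL and at 60, 48.3 and 45.1 in KOL (-3.51, SE 0.15, adjusted p = 7.7e-07). The scavenger receptor Marco fell from 7532, 6947 and 6567 to 1559, 1664 and 1926 (-2.00, SE 0.11, adjusted p = 3.2e-06). Clec7a, the beta-glucan receptor Dectin-1, rose from 3857, 3385 and 3476 to 7976, 8871 and 9570 (1.33, SE 0.10, adjusted p = 1.9e-05). The groups overlapped in none of these. The Fc gamma receptors split, with Fcgr1 at -2.17 and Fcgr4 at 2.01 (adjusted p = 3.1e-06 and 9.2e-06). Tlr2 was lower in each KOL library but under the fold cutoff (-0.58, adjusted p = 0.0049).

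Itaconate, nitric oxide, arginine and prostaglandin genes were lower at 14 of 21 (median log2 fold change -0.90). Acod1, which makes itaconate, was at 77906, 64476 and 56727 in WTL and at 28887, 36262 and 31955 in KOL (-1.01, SE 0.14, adjusted p = 5.9e-04). Nos2, the inducible nitric oxide synthase, fell from 1694, 1675 and 1501 to 413, 407 and 343 (-2.04, SE 0.11, adjusted p = 2.6e-06). Ptgs2 and Ptges act in turn to make prostaglandin E2. Ptgs2 fell from 6351, 4702 and 4548 to 2180, 2301 and 2632 (-1.10, SE 0.14, adjusted p = 3.8e-04), and Ptges from 2290, 2338 and 2237 to 575, 621 and 594 (-1.91, SE 0.09, adjusted p = 1.5e-06). For all 4 genes every KOL library was below every WTL library.

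Ch25h, which makes the antiviral oxysterol 25-hydroxycholesterol, was at 3049, 3155 and 2803 in WTL and at 588, 526 and 635 in KOL, with no overlap (-2.33, SE 0.11, adjusted p = 1.5e-06). Also lower were the arginine genes Arg1, Arg2, Ass1 and Slc7a2, the leukotriene genes Alox5 and Alox5ap, the prostanoid receptors Ptger2 and Ptgir, and Ido1, which degrades tryptophan. Their log2 fold changes ran from -1.59 (Alox5) to -0.81 (Ptger2), and Ptger2 was not called on TPM with limma (-0.78 and -0.51). Gch1, which makes a cofactor of nitric oxide synthase, was kept at 0.14, as was the constitutive cyclooxygenase Ptgs1 at 0.06.

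Cholesterol synthesis was lower at 18 of 25 genes (median log2 fold change -1.08). The lower genes included the regulators Srebf2 and Insig1 beside the enzymes. Hsd17b7, an enzyme of the later steps, was at 517, 420 and 499 in WTL and at 132, 130 and 136 in KOL (-1.82, SE 0.12, adjusted p = 6.2e-06). Fdps, which makes farnesyl pyrophosphate, fell from 1595, 1804 and 1849 to 681, 705 and 666 (-1.32, SE 0.10, adjusted p = 1.1e-05). Neither gene overlapped between groups. Idi1 and Sqle, which belong to the same pathway, were kept at 0.29 and 0.01.

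Among other lipid genes, the lipoprotein lipase Lpl fell from 34627, 28573 and 26042 to 12631, 12652 and 12981 (-1.19, adjusted p = 8.7e-05), and Apoe rose by 0.93 (adjusted p = 7.7e-04). Glycolysis genes were lower at 4 of 20 (20%), higher at 3 (15%) and kept at 7 (35%). Over all genes these shares were 11.0%, 12.4% and 39.0%. Hexokinase 2 (Hk2, 1.08, adjusted p = 2.5e-04) and the phosphofructokinase Pfkl (1.18, adjusted p = 3.6e-05) rose, whereas lactate dehydrogenase (Ldha, -0.66, adjusted p = 0.00101) and the glycolytic activator Pfkfb3 (-0.79, adjusted p = 1.7e-04) fell. Of the citric acid cycle enzymes, 15 of 20 were kept and the rest were undecided. Citrate synthase (Cs) was kept at 0.09 (interval -0.10 to 0.28).

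In the G2/M list 26 of 30 fell (median log2 fold change -1.21). The kinase Cdk1 went from 720, 712 and 665 to 379, 324 and 383 (-0.92, adjusted p = 1.7e-04) and the kinase Plk1 fell by 1.52 (adjusted p = 5.3e-05). Mki67, the proliferation antigen Ki-67, was at 6838, 5222 and 4363 and 2336, 3560 and 2494, with WTL replicate 1 and KOL replicate 2 the highest of their groups. Without both libraries the count of lower genes in the list was 26. In the S phase list 14 of 32 were lower and 2 were higher (median -0.44). The replication factor Mcm10 fell by 1.57 (adjusted p = 1.9e-04) and Rrm2, a subunit of ribonucleotide reductase, by 1.19 (adjusted p = 2.6e-04), whereas the sliding clamp Pcna rose by 0.81 (adjusted p = 2.4e-04).

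The next 4 lists stand beside 11.0% lower and 12.4% higher of all genes. Of the unfolded protein and ATF4 response genes, 3 of 19 were lower (15.8%), 4 were higher (21.1%) and 9 were kept. Ddit4 and Sesn2, inhibitors of mTORC1, rose by 1.32 (adjusted p = 5.7e-05) and 1.25 (adjusted p = 3.4e-04), and the chaperone Hspa5 was kept at 0.22. Of the Nrf2 genes, 2 of 15 were lower and 2 were higher, with the peroxiredoxin Prdx1 up by 0.98 (adjusted p = 4.8e-04). Of the survival and death genes, 2 of 20 were lower and 4 were higher, among them Bbc3, which encodes PUMA, by 0.86 (adjusted p = 8.6e-04). Lysosomal genes were higher at 6 of 22 and lower at 2. Their regulator Tfeb rose from 124, 183 and 178 to 414, 359 and 428 (1.33, adjusted p = 2.1e-04), while the protease Ctsk fell by 2.33 (adjusted p = 3.2e-05).

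Matrix genes were lower at 9 of 25 and higher at 7. Fn1, fibronectin, fell from 32037, 28847 and 22670 to 8074, 9447 and 8414 (-1.66, SE 0.14, adjusted p = 2.9e-05), and Timp2, an inhibitor of metalloproteinases, by 3.00 (adjusted p = 1.1e-06). Nid1, a basement membrane protein, was at 2.7, 31.4 and 4.25 in WTL and at 670, 1035 and 729 in KOL, far apart. In the retinoic acid list 3 of 9 were higher and 1 was lower. Aldh1a2, the enzyme with which dendritic cells make retinoic acid, rose from 1107, 1383 and 1809 to 10903, 8400 and 9798, with no overlap (2.79, SE 0.17, adjusted p = 6.2e-06). Chst3, a chondroitin sulfotransferase, rose from 32.4, 23.8 and 45.7 to 147, 207 and 142 (2.30, adjusted p = 1.3e-04), and its mean without LPS was 26.8 ± 3.02 (SD, n = 3) in WT and 1515 ± 54 in KO.

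CTCF, cohesin and loop genes were kept at 8 of 14, with 0 lower and 1 higher. Smc3, a cohesin subunit, rose from 504, 416 and 444 to 808, 934 and 806 (0.93, SE 0.11, adjusted p = 2.1e-04), and the subunits Rad21 and Stag2 were kept. Myeloid factors were lower at 6 of 20 and higher at 5. Cebpa, a factor of granulocyte-monocyte progenitors, fell by 1.42 (adjusted p = 4.4e-04), and Cebpe, its relative in granulocytes, rose from 16.2, 30.3 and 22.3 to 248, 256 and 286 (3.52, SE 0.22, adjusted p = 3.3e-06). Spi1, which encodes PU.1, was kept at -0.33 (interval -0.54 to -0.12). Of the neutrophil and precursor markers, 5 of the 8 tested were lower, and their part in the change of Cebpe was not tested.

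The largest falls among genes with a mean of at least 100 counts were in Ifi208, Cd207, U90926, C1ra and Lox. Ifi208, of a family of close copies, was at 394, 368 and 280 in WTL and 5.47, 9.57 and 3.29 in KOL. Cd207, the lectin langerin of Langerhans cells, was at 233, 309 and 371 and 12.9, 1.17 and 3.2. The others were the transcript U90926 (712, 494 and 467 against 19.4, 14 and 16), the complement protease C1ra (481, 414 and 352 against 16.1, 18.7 and 32) and the collagen cross-linker Lox (548, 375 and 278 against 23.7, 25.7 and 23.5). That the groups did not overlap was a condition for naming these genes.

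The largest rises by log2 fold change were in Gm8300, Gm8210, Gm13841, Lhfpl4 and Rps3a3. Lhfpl4 was at 1.35, 2.17 and 0 in WTL and at 224, 225 and 226 in KOL. Gm8300 was at 0, 0 and 1.06 and 238, 210 and 271, and the pseudogene Rps3a3, which overlaps Pde4d, at 21.7, 15.2 and 19.6 and 2774, 1499 and 3270. The pseudogenes Gm8210 and Gm13841 held identical values (1.59, 1.38 and 1.42 against 343, 279 and 357) and may share reads, which was not tested. Whether reads counted at these pseudogenes and at Rps3a3 came from related genes was not tested either.

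Whether CTCF loss acted differently once LPS was present was tested by an interaction across all 12 libraries, the log2 difference between KOL and WTL minus that between KO and WT. It passed at 2443 of 14008 genes (17.4%), 1225 lower (8.75%) and 1218 higher (8.70%) with LPS. Without KOL replicate 2 it passed at 3769. KO and WT share no library with KOL and WTL. Without LPS, 12.4% of genes were lower and 12.4% higher in KO by the same cutoffs.

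Without LPS, 23 of 38 antiviral effectors were lower in KO (median log2 fold change -0.77), and with it 5 were. The interaction was positive at 25 and negative at 1. Rsad2 was at 941 ± 26.5 (SD, n = 3) in WT and 499 ± 37.9 in KO (interaction 0.88, SE 0.14, adjusted p = 7.0e-04). Of the chemokines, 12 of 22 were lower without LPS, with 13 positive and 2 negative interactions. Cxcl1, higher in KOL, was at 554 ± 64.5 in WT and 112 ± 3.04 in KO (interaction 2.96, SE 0.20, adjusted p = 6.2e-07). Il23a, kept with LPS, was at 128 ± 23.2 in WT and 13.9 ± 2.4 in KO (interaction 3.06, SE 0.29, adjusted p = 5.1e-06). Il6 was lower in both states, by less with LPS (interaction 1.56, SE 0.36, adjusted p = 0.00621).

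At other genes the interaction was negative, and those named here other than Il1b fell more with LPS than without it. Nos2 was at 21.9 ± 6.05 in WT and 21.2 ± 6.71 in KO, and Ptges at 189 ± 13.6 and 183 ± 11.5 (SD, n = 3). Their interactions were -2.02, adjusted p = 3.5e-04 and -1.89, adjusted p = 1.9e-07. Icam1 (-0.96, adjusted p = 4.7e-05), Mefv (-1.20, adjusted p = 3.8e-05) and Irf8 (-0.94, adjusted p = 7.5e-04) also had negative interactions. Il1b, kept with LPS, was at 1583 ± 7.82 in WT and 3878 ± 124 in KO (interaction -1.47, SE 0.14, adjusted p = 1.0e-05).

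Cholesterol synthesis and G2/M genes were lower in both states, at 18 of 25 and 26 of 30 without LPS. The interaction was negative at 7 and positive at 4 of the former, and negative at 12 and positive at 1 of the latter. The itaconate, nitric oxide, arginine and prostaglandin list had 10 lower without LPS (median log2 fold change -0.39), with 6 negative and 5 positive interactions.

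**Figure D5:**
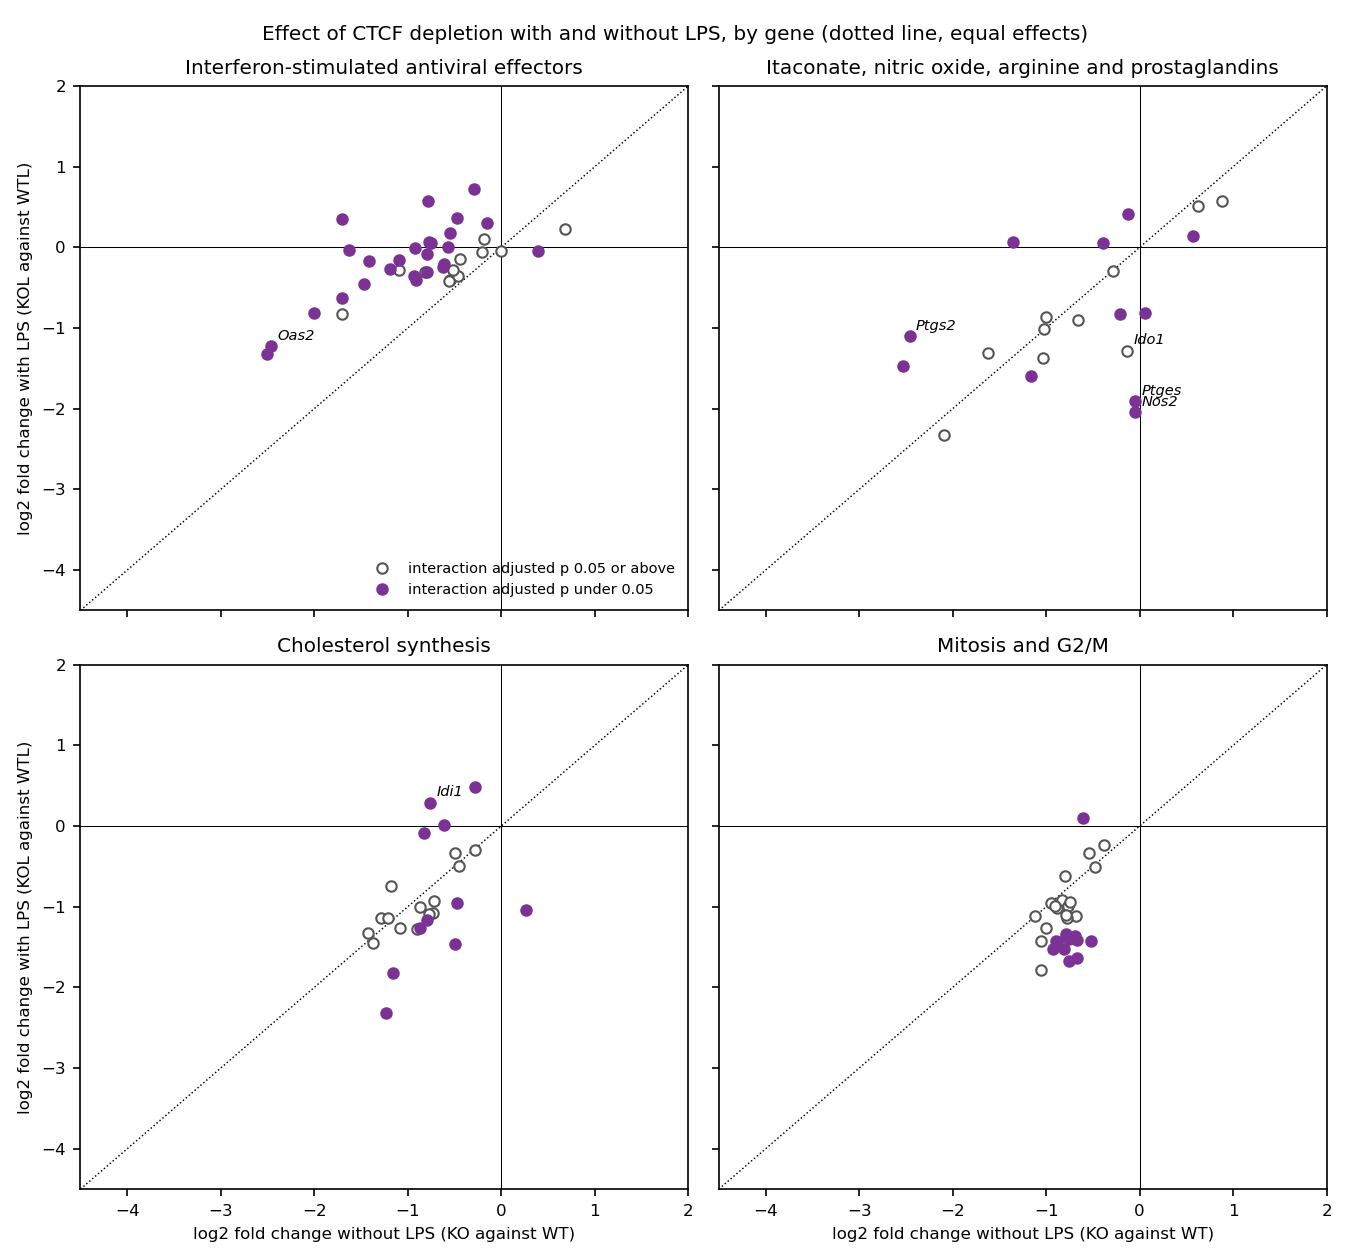
Log2 fold change of each gene without LPS (KO against WT, horizontal) and with LPS (KOL against WTL, vertical) for 4 lists. Filled points passed the interaction test and the dotted line marks equal effects. The interaction was positive at 25 of 38 antiviral effectors, and Nos2 and Ptges lie below the line near 0 on the horizontal axis.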

How the data were processed

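RNA was sequenced from 3 libraries per group. Per the labels, the authors aligned reads with STAR 2.5.1 to mm10 and quantified genes with RSEM. The study's reporting form names another STAR version. The labels describe ribosomal RNA depletion and the methods poly(A) selection, and strand use in counting is not given in the sources used here. The deposited values are expected counts (55335 genes per library), with TPM also calculated by the authors. TPM was used here for marker sums and as an alternative.

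Expected counts were rounded, filtered with filterByExpr, TMM-normalized and tested with edgeR's quasi-likelihood test (edgeR 4.0.16, R 4.3.3) with Benjamini-Hochberg adjustment over all genes. KOL and WTL were fitted with 6 libraries, and the interaction and KO against WT with 12. In simulated data with 200 changed genes, the script was tested before use. Genes were named by a rule that took Ctcf, genes that the study names for LPS-stimulated cells and the best expressed kept genes of each list. It also took the largest falls and rises of each list and the 5 largest of each direction overall. These falls and rises were taken among called genes whose groups did not overlap. Their mean over the LPS libraries had to be at least 100 normalized counts. Other list members were named after their values were seen. Lists and members were chosen with earlier results of these data known. Promoters and motifs were read from RefSeq (GRCm38.p6). DESeq2 1.42.0, limma 3.58.1 and other settings served as alternatives. Deviations of same-numbered replicates from their group means correlated at r = -0.325, -0.135 and 0.126. Pairs with different numbers ran from -0.306 to 0.367, so this check cannot tell whether the numbers pair the libraries. The main fits did not pair them. Some results are not reported here.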

Additional observations from a re-analysis of the deposited data

Results flagged for a closer look

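The interaction between CTCF loss and LPS passed an adjusted p of 0.05 by both edgeR and limma-voom at 86 of the 164 named genes tested. It was negative, a lower difference between KOL and WTL than between KO and WT, at 27 and positive at 59. Over all genes tested by edgeR alone the share was 17.4%. Many of the named genes were chosen for a large change between KOL and WTL, which is itself part of the interaction. The shares of named genes and of all genes therefore cannot be compared. The values below are interactions on the log2 scale, grouped by function, and no explanation for them was tested.

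Among cytokines it was negative at Il1b (-1.47) and positive at Il12b (1.11), Il1rn (0.63), Il23a (3.06), Il6 (1.56) and Tnf (0.73). Among chemokines it was negative at Ccl5 (-0.36) and Cxcl10 (-0.34) and positive at Ccl22 (0.64), Ccl9 (0.68), Cx3cl1 (1.14), Cxcl1 (2.96), Cxcl2 (2.08), Cxcl3 (0.86) and Cxcl5 (2.32). Among TLR4 pathway genes it was negative at Irak3 (-0.46) and positive at Cd14 (0.75), Tab1 (0.96) and Trim25 (0.95). Among NF-κB genes it was negative at Tnip1 (-0.60) and Zc3h12a (-0.77) and positive at Nfkbiz (0.31). Among interferon regulators it was negative at Irf8 (-0.94) and positive at Ifnb1 (4.40), Irf1 (0.40), Irf4 (0.70), Irf7 (0.60), Irf9 (0.84), Stat2 (0.76) and Usp18 (0.88). Among antiviral effectors it was positive at Isg15 (0.42), Mx1 (0.35), Oas1g (1.04), Oas2 (1.21), Oas3 (1.16), Rsad2 (0.88) and Slfn1 (1.16). Among interferon-inducible GTPases it was positive at Irgm1 (0.44). Among GM-CSF, JAK, STAT and SOCS genes it was negative at Csf2ra (-0.65) and Socs3 (-1.11) and positive at Jak2 (0.52) and Socs2 (0.60). Among costimulatory and checkpoint genes it was negative at Cd48 (-0.36) and Icam1 (-0.96) and positive at Cd40 (0.38), Cd86 (0.48) and Pdcd1lg2 (0.65). Among MHC class II genes it was negative at March1 (-1.47) and positive at H2-Eb1 (0.85), H2-Oa (0.78) and H2-Ob (1.05). Among MHC class I genes it was positive at H2-T23 (0.73). Among migration genes it was positive at Ccr7 (0.85) and Cxcr4 (2.21). Among pattern recognition receptors it was positive at Clec7a (1.00) and Marco (1.51).

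Among inflammasome genes it was negative at Mefv (-1.20) and positive at Nlrp3 (0.62). Among itaconate, nitric oxide, arginine and prostaglandin genes it was negative at Alox5ap (-0.64), Gch1 (-0.46), Nos2 (-2.02), Ptger2 (-0.90) and Ptges (-1.89) and positive at Ptgs1 (0.41), Ptgs2 (1.32) and Slc7a2 (1.03). Among cholesterol synthesis genes it was negative at Hsd17b7 (-0.69), Insig1 (-0.42) and Srebf2 (-0.51) and positive at Idi1 (1.02) and Sqle (0.60). Among glycolysis genes it was positive at Pfkl (0.47). Among S phase genes it was negative at Mcm10 (-0.70) and positive at Pcna (0.51). Among G2/M genes it was negative at Plk1 (-0.62). Among ATF4 response genes it was positive at Ddit4 (1.18) and Sesn2 (0.95). Among survival and death genes it was positive at Bbc3 (0.66). Among matrix genes it was negative at Fn1 (-1.35). Among cohesin and loop genes it was positive at Smc3 (0.47). Among myeloid factors it was negative at Cebpa (-0.64) and Spi1 (-0.53) and positive at Cebpe (1.08). Outside the lists it was negative at Chst3 (-3.55) and positive at C1ra (1.47) and Klrk1 (0.87). Ifnb1 was at 0 in every KO library, so the size of its interaction depends on the prior count of the fit.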

How the results depend on the processing

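The counts of lower and higher genes (1441 and 1618) moved most with the treatment of fold size. A test against 1.5-fold itself (glmTreat) gave 728 and 891, and a cutoff above 2-fold gave 790 and 968. On TPM the higher genes were 1029 with limma on log2(TPM + 0.1) and 992 on log2(TPM + 1); the cause was not tested. DESeq2 gave 1387 and 1574. Leaving out 1 library gave 1255 to 1668 lower, 1432 to 1786 higher and 3917 to 5085 kept genes. The interaction count of 2443 ranged from 1662 to 3769 when 1 of the 12 libraries was left out, and the highest was without KOL replicate 2. With the replicate number as a block the counts were 1331 lower, 1490 higher, 4410 kept and 2063 interactions, and of 164 named genes 164 had the same call. Whether the numbers pair the libraries is not known. Chosen after seeing the data, the fit without WTL replicate 1 and KOL replicate 2 gave 1648 and 1732, and an offset for transcript length and GC content gave 1662 and 1497. Ctcf passed the fold cutoff in the fit of 12 libraries, with that offset, and without KOL replicate 1 or WTL replicate 3. Tlr2, Cxcl2 and Cxcl11 passed it under some settings, and no named gene reversed. Under glmTreat 24 named genes were no longer called. They were Bbc3, Cd274, Cd40, Csf2ra, Cxcl1, H2-D1, Irak2, Irak3, Irf4, Irgm2, Isg20 and Ldha. The others were Mki67, Myd88, Nlrp3, Oas1g, Pdcd1lg2, Pfkfb3, Ptger2, Socs2, Socs3, Tirap, Tnip1 and Zc3h12a. DESeq2, limma and glmTreat gave no interval, so kept genes were not recounted there. With 3 libraries a group, changes near 1.5-fold could often be called neither kept nor changed (4903 genes).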
